A study of Homo sapiens with 26 samples.

Results

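The late response to dexamethasone (DEX) was read on 4 of the 26 exon arrays of MCF10A cells, 1 array after 120 min with DEX, 1 array after 240 min and the 2 arrays of untreated cells. It was followed across all 16600 genes measured. The mean of both late arrays was set against the mean of both untreated arrays, and the arrays were chosen by their labels alone. MCF10A cells are a human mammary epithelial line, established in culture and not tumorigenic. DEX is a synthetic glucocorticoid. It enters the cell and binds the glucocorticoid receptor (GR, gene NR3C1), a transcription factor that then moves to the nucleus. There GR raises some genes from DNA sites known as glucocorticoid response elements (GREs) and lowers others, many of which are driven by AP-1 or NF-κB. Glucocorticoids are known for restraining inflammation, for setting fuel use and salt transport, and, in the mammary gland, for supporting the epithelium.

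All cells were grown with insulin, cholera toxin, hydrocortisone (itself a glucocorticoid), horse serum and EGF, and were starved overnight before treatment. The late DEX arrays received DEX at 100 nM without EGF for 120 or 240 min. The untreated arrays are labelled 0 min and received neither agent. The effect of DEX and the effect of further time in the stimulation medium therefore cannot be told apart in this comparison. For comparison, 2 arrays at 60 min of DEX and 4 arrays matched in time were used, namely EGF (10 ng per ml) or EGF with DEX (EGF+DEX) at 120 and 240 min, 1 array each. Replicates are told apart in the labels by number only, and p-values measure the spread between these samples, which may be technical. The cells are 1 established line in culture, and a bulk RNA sample cannot tell fewer cells of a kind from less RNA per cell.

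The array reads parts of exons with groups of probes called probesets, and their deposited brightness was put on the log2 scale. The level of a gene is a median polish over at least 3 of its probesets above a background of 4.65, the median of the probesets that carry no gene name. Levels are given in log2 intensity and are compared only within a gene. Differences are in log2 units, so that 1 stands for a 2-fold change. On each array 61.1% to 62.7% of all probesets lay above the background. Precision is limited by how few arrays there are. A gene was called when limma's adjusted p (Benjamini-Hochberg over all genes) was under 0.05 and the difference at least 1.5-fold. The spread came from the 10 groups with 2 arrays, and each late array was assumed to vary like them. The median standard error of the late difference was 0.154. Across genes, the differences between the 2 untreated arrays had an SD of 0.249 and those between the 2 late arrays an SD of 0.259.

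Markers of the labelled cell type were bright on all 4 arrays. The basal keratin KRT5 stood at 13.06 and 13.11 on the untreated arrays and at 13.04 and 13.14 on the late arrays. Of 10 basal markers measured only TP63 was called, and of 11 luminal markers only FOXA1, both lower. The call of FOXA1 was lost without either untreated array or the 240 min array (adjusted p = 0.103, 0.0654 and 0.124 in limma, with 0.00505 to 0.124 over all its alternatives). The summed intensity of the basal list was 20150 and 20940 untreated and 19250 and 18670 with late DEX, that of the luminal list 4215 and 4042 against 3949 and 3719. The 4 leukocyte markers summed to between 238 and 325 and the 5 endothelial markers to between 213 and 255 on the 4 arrays, and none of these was called. The leukocyte gene PTPRC lay between 5.39 and 5.57 and the endothelial gene PECAM1 between 5.78 and 6.25. The 13 mesenchymal markers summed to 5171 and 5327 untreated and 5775 and 5938 with late DEX, with ZEB2 and DCN called higher. That of DCN was lost without untreated replicate 1 or the 240 min array (adjusted p = 0.0577 and 0.429 in limma, with 0.00113 to 0.429 over all its alternatives). The part of these shifts in other results was not tested. NR3C1 itself stood at 8.47 and 8.36 untreated and at 8.23 and 7.79 with late DEX, a difference of -0.40 ± 0.14 that did not pass (SE, limma, adjusted p = 0.108).

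Late DEX raised 270 genes (1.63% of those tested) and lowered 340 (2.05%). Of the raised genes 89 rose at least 2-fold and 9 at least 4-fold, and of the lowered genes 62 and 3. The median of all genes was -0.06. The direction that held more genes depended on the scaling, since quantile normalization gave 294 higher and 283 lower, with a median of -0.03. Fitted on the 4 arrays alone, 148 were higher and 152 lower. The counts also rested on single arrays. Without the 240 min array 157 genes were higher and 99 lower, and without the 120 min array 278 and 564. Without untreated replicate 1 they were 200 and 147, and without untreated replicate 2, 201 and 284. Both late arrays lay above both untreated arrays in 2823 genes (17% of all) and below them in 5465 (32.9%), so that an order of the 4 arrays alone sets no gene apart. Where leaving out 1 of the 4 arrays ended a call against untreated cells that is described here, the value is given with the gene.

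SCNN1G rose most. It encodes the gamma subunit of the epithelial sodium channel, the channel through which glucocorticoids and aldosterone drive sodium uptake. It stood at 5.79 and 5.90 untreated and at 8.85 and 8.96 after 120 and 240 min of DEX. This was a rise of 3.06 ± 0.17 (SE), or 8.33-fold (limma, adjusted p = 1.11e-08). The beta subunit gene SCNN1B rose from 5.79 and 5.83 to 6.63 and 7.21, by 1.11 ± 0.13 (limma, adjusted p = 7.04e-05). SGK1, a kinase that keeps the sodium channel at the membrane, moved from 8.16 and 8.06 to 9.87 and 9.67. Its rise was 1.66 ± 0.16 (limma, adjusted p = 4.8e-06). In each of these genes both late arrays stood above both untreated arrays. Of 19 measured genes of sodium and potassium transport 5 rose and 1 fell, with a list median of 0.09. Beside this and every list count below, 1.63% of all genes rose and 2.05% fell. Lists share genes, and a gene counts in each of its lists. The risers SCNN1G, SCNN1B, SGK1 and TSC22D3 are also on the list of known GR targets described below. With any of the 4 arrays left out, 4 to 6 of the list rose and none fell.

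KDR, a receptor for vascular endothelial growth factor, rose from 4.83 and 5.2 to 7.75 and 7.90, near the background before DEX and well above it after. The rise was 2.81 ± 0.17 (limma, adjusted p = 2.6e-08). With a stricter brightness filter, which drops dim probesets, it was 1.46 (adjusted p = 1.18e-06 in limma, with 9.43e-09 to 2.35e-04 over all its alternatives). RGS2, which speeds the switching off of G protein signals, rose from 6.53 and 6.58 to 9.24 and 9.47, by 2.80 ± 0.12. It had the lowest adjusted p of all genes (3.74e-10 in limma). PDK4, a mitochondrial kinase that turns cells from glucose to fatty acid oxidation, rose from 6.41 and 6.44 to 9.20 and 9.04, by 2.70 ± 0.16. SULT1E1, which inactivates oestrogens by sulfation, rose from 8.03 and 7.88 to 10.11 and 10.53. ETNK2, an ethanolamine kinase of membrane lipid synthesis, rose from 6.91 and 7.04 to 9.0 and 9.67. The rises of both genes were 2.37 ± 0.18 and 2.36 ± 0.13 (limma, adjusted p = 3.59e-07 and 8.39e-09). In all 5 genes the gap between untreated and late arrays was wider than that within either pair.

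**Figure D1:**
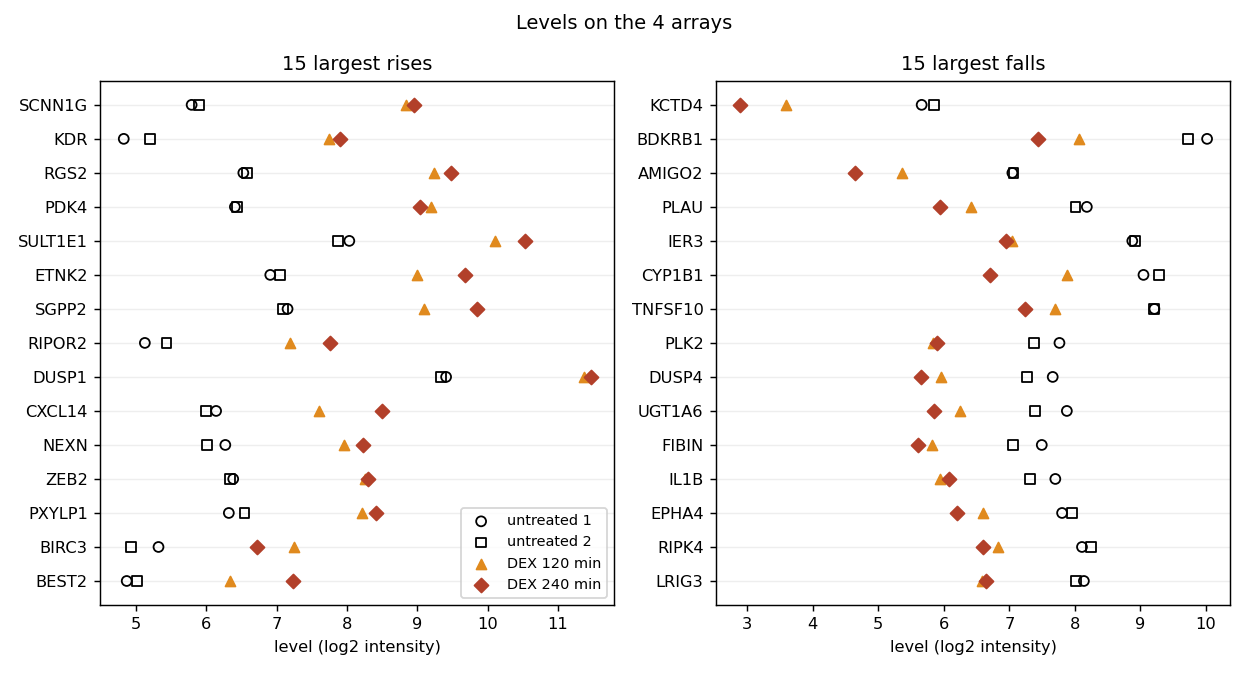
Level in log2 intensity (horizontal axis) of the 15 genes with the largest rise (left) and the 15 with the largest fall (right) among called genes, 1 gene a row. Open black symbols are the 2 untreated arrays, triangles DEX at 120 min and diamonds DEX at 240 min; in every row both DEX arrays lie on the same side of both untreated arrays.

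Further large rises were seen in SGPP2, a sphingosine-1-phosphate phosphatase (2.35 ± 0.15), RIPOR2 (2.19 ± 0.15), and DUSP1 (2.05 ± 0.22). CXCL14, a chemokine of epithelia, went from 6.14 and 6.0 to 7.60 and 8.50, a rise of 1.98 ± 0.15. NEXN, an actin-binding protein, rose by 1.95 ± 0.21, ZEB2, a zinc finger repressor known from epithelial to mesenchymal transition, by 1.91 ± 0.19, and the phosphatase gene PXYLP1 by 1.88 ± 0.20. BIRC3, an inhibitor of apoptosis, rose by 1.87 ± 0.24 and BEST2, an anion channel of the bestrophin family, by 1.85 ± 0.15. Limma's adjusted p lay between 3.77e-08 and 1.11e-04 for these 9 genes. GREB1, best known as an oestrogen-induced gene, rose by 1.63 ± 0.13 and GHR, the growth hormone receptor, by 1.46 ± 0.21 (limma, adjusted p = 4.2e-07 and 4.47e-04).

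Among the gene lists, known GR targets had the largest share of called genes. Of 46 genes on the list, all measured, 26 rose, none fell and 20 did not pass. The list median was 0.68 beside -0.06 for all genes. The gene lists were chosen with earlier results of these data known, so these counts are a description only. With any of the 4 arrays left out, 19 to 22 of the list rose. TSC22D3, also known as GILZ, a leucine zipper protein that binds NF-κB and AP-1, went from 7.43 and 7.54 to 9.20 and 9.30. It rose by 1.77 ± 0.12 (limma, adjusted p = 1.16e-07). FKBP5, a co-chaperone that lowers the affinity of GR for its ligand, rose from 10.10 and 9.94 to 11.01 and 11.21, by 1.09 ± 0.14. ZBTB16, a transcriptional repressor also called PLZF, rose by 1.09 ± 0.17, FOXO3, a forkhead factor, by 1.02 ± 0.11 and PIK3R1, the regulatory subunit of PI3 kinase, by 0.99 ± 0.12. Limma's adjusted p lay between 1.38e-05 and 6.47e-04 for these 4 genes. Not every classical target passed: the clock gene PER1 differed by 0.14 ± 0.15 and the factor KLF9 by 0.18 ± 0.20 (limma, adjusted p = 0.676 and 0.663). Of 19 measured genes that encode GR, its chaperones and its coregulators, FKBP5 alone was called, and the list median was -0.14.

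The promoters of the responding genes were searched for the inner letters of the GRE, ACANNNTGT, and for AGAACA, the site of 1 receptor of the pair, on both strands. A RefSeq promoter of 300 bases (250 before to 50 after the start, GRCh38.p14) was found for 216 raised, 261 lowered and 13021 tested genes. Only the first listed promoter of a gene was used, and any other start was not searched. Whether the start shown for a gene serves the transcripts that moved was not tested. The GRE letters were in 3.24% of the promoters of raised genes, 2.68% of those of lowered genes and 3.12% of those of all genes tested. The shorter letters AGAACA were in 12%, 9.58% and 9.78%. The shares of raised and lowered genes thus lay near that of all genes, and a match is only a description of these letters. Not every gene named here was searched singly. Among those that were, 3 held the GRE letters, 2 of them raised and 1 lowered. The promoters of these 3 are shown 5′ to 3′ because they carry the letters in full (capitals). EPHA4, an ephrin receptor, is the lowered gene, and its call rested on single arrays, as given with the falls.
TSC22D3 (chrX:107775939-107776238, minus strand): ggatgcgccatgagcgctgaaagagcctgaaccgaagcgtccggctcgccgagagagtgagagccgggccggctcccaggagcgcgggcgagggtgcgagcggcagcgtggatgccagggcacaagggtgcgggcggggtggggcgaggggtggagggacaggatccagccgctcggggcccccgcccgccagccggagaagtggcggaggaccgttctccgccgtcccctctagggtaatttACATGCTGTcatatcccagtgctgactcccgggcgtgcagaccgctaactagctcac
TXNIP (chr1:145996530-145996829, minus strand): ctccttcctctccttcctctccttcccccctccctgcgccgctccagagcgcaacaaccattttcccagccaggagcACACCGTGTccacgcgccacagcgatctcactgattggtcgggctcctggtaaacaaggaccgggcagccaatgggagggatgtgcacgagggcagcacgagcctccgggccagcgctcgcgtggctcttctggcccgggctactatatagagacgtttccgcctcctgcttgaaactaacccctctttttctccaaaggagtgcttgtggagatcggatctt
EPHA4 (chr2:221574153-221574452, minus strand): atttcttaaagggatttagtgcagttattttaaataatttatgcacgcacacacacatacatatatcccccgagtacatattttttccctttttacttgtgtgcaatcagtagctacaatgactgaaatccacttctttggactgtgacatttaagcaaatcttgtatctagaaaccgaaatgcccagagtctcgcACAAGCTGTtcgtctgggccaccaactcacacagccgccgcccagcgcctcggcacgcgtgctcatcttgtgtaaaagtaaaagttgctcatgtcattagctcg

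BDKRB1, a receptor for kinins that is induced in inflammation, fell from 10.02 and 9.73 to 8.06 and 7.44, by 2.13 ± 0.23 (limma, adjusted p = 1.87e-05). BDKRB2, the constitutive kinin receptor, fell from 7.84 and 7.73 to 6.78 and 6.31, by 1.24 ± 0.19 (limma, adjusted p = 5.27e-04). AMIGO2, an adhesion protein of the cell surface, fell from 7.05 and 7.06 to 5.35 and 4.65, by 2.05 ± 0.20. The last of these levels lay at the background, so the fall at 240 min has only a lower bound in size. PLAU, which encodes urokinase, the protease that activates plasminogen, fell from 8.18 and 8.01 to 6.42 and 5.95, by 1.91 ± 0.17. Their adjusted p was 6.87e-06 and 1.6e-06 in limma. In these 4 genes the 240 min array was the lowest. KCTD4, a member of the KCTD family, had the largest fitted difference (-2.52), but its late levels of 3.59 and 2.88 lay under the background. Set against the background, its untreated mean of 5.76 was at least 2.16-fold higher. With no brightness filter KCTD4 differed by -1.09 (adjusted p = 0.00606 in limma, with 1.9e-07 to 0.00606 over all its alternatives).

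IER3, an early response gene, fell from 8.88 and 8.92 to 7.05 and 6.95, by 1.90 ± 0.23. TNFSF10, the death ligand TRAIL, fell from 9.21 and 9.21 to 7.70 and 7.24, by 1.74 ± 0.27. PLK2, a polo-like kinase, fell from 7.76 and 7.38 to 5.84 and 5.89, by 1.71 ± 0.23. RIPK4, a kinase of epithelial differentiation, fell by 1.47 ± 0.26. For these 4 genes the adjusted p in limma lay between 7.92e-05 and 0.00217. TP63, the defining factor of basal epithelium, fell from 10.17 and 10.09 to 9.33 and 8.85, by 1.04 ± 0.15 (limma, adjusted p = 2.81e-04). FIBIN fell by 1.56 and EPHA4 by 1.48, but both calls rested on single arrays. Without the 240 min array limma gave FIBIN an adjusted p of 0.165, and without untreated replicate 1 of 0.191 (0.00461 to 0.191 over all its alternatives). For EPHA4 it was 0.105 without the 240 min array and 0.0519 without untreated replicate 2 (0.00132 to 0.105).

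**Figure D2:**
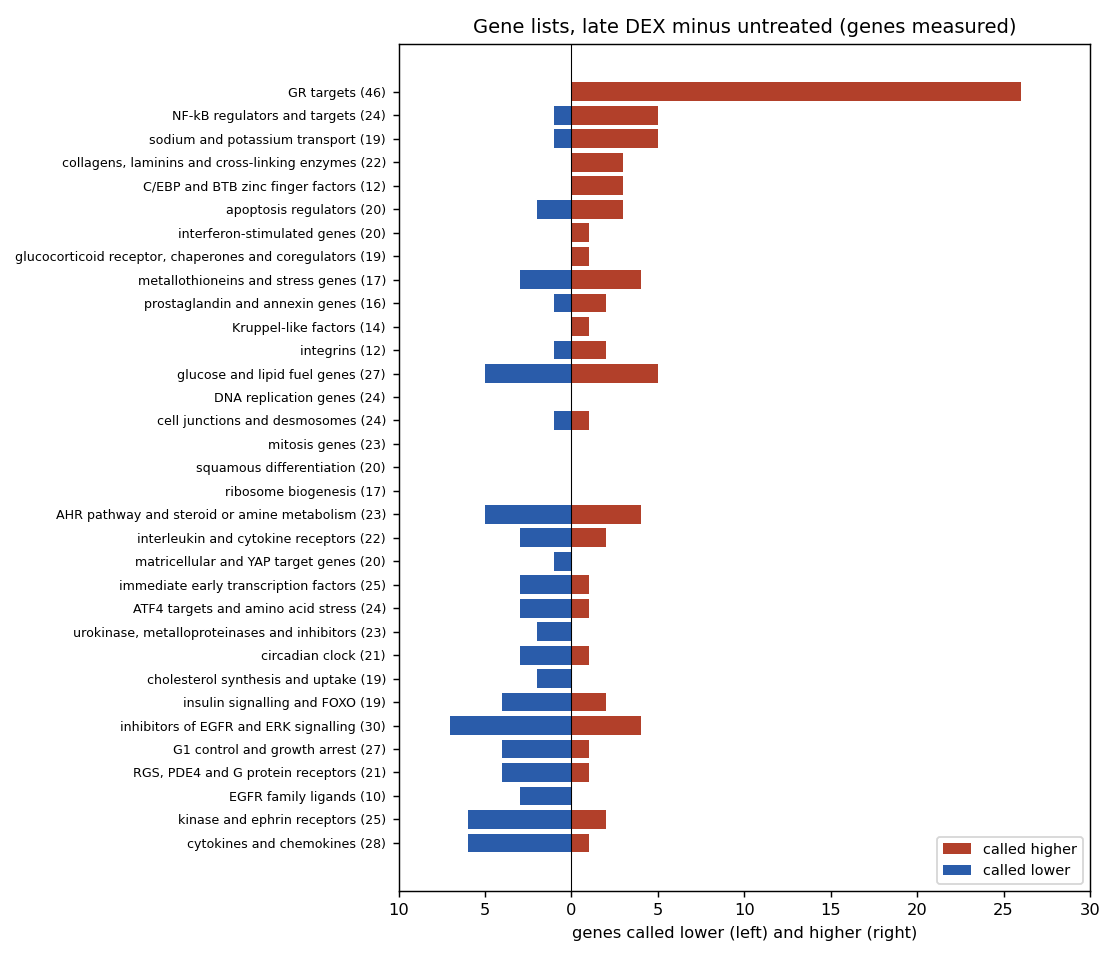
Number of genes called lower (bars to the left of 0) and higher (bars to the right) with late DEX in each gene list, with the number of genes measured in brackets. The GR targets have 26 raised and no lowered genes, while the cytokines and chemokines have 6 lowered and 1 raised.

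Of the 10 EGFR family ligands measured, EREG, HBEGF and NRG1 fell and none rose. The count of 3 held with any of the 4 arrays left out. EREG (epiregulin) went from 7.27 and 7.75 to 5.99 and 6.34, by -1.34 ± 0.22, and by -0.85 when its probesets were averaged. HBEGF fell from 6.94 and 7.03 to 5.93 and 6.13, by 0.96 ± 0.17, and NRG1, a ligand of ERBB3 and ERBB4, from 7.85 and 7.88 to 7.04 and 6.87, by 0.91 ± 0.13. For the 3 ligands the adjusted p was 0.00118, 0.00179 and 4.11e-04 in limma. TGFA, whose product also binds EGFR, differed by 0.01 ± 0.19 and EGFR itself by -0.06 ± 0.15 (limma, adjusted p = 0.987 and 0.892).

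Genes that restrain EGFR and ERK signalling moved in both directions. Of 30 measured 4 rose, 7 fell and 19 did not pass, with a list median of -0.18. The 4 risers are also on the list of GR targets. ERRFI1 (MIG6), which binds and blocks the EGFR kinase domain, rose from 8.50 and 8.51 to 10.45 and 9.68, by 1.56 ± 0.12 (limma, adjusted p = 4.8e-07). DUSP1, a nuclear phosphatase of ERK, p38 and JNK, rose from 9.41 and 9.34 to 11.37 and 11.47 (limma, adjusted p = 1.88e-05). By contrast DUSP4, another nuclear MAP kinase phosphatase, fell from 7.66 and 7.26 to 5.96 and 5.65, by 1.66 ± 0.18. LRIG3, a member of the LRIG family, fell from 8.14 and 8.01 to 6.58 and 6.64, by 1.46 ± 0.13. The adjusted p of DUSP4 and LRIG3 was 2.2e-05 and 2.85e-06 in limma. SPRY4, an inhibitor of RAS to ERK signalling, differed by -0.41 ± 0.25 and the mRNA decay factor ZFP36L2 by 0.31 ± 0.19 (limma, adjusted p = 0.401 and 0.395). The sulfatase gene SULF1 differed by -0.10 ± 0.18 (limma, adjusted p = 0.821). With any of the 4 arrays left out, 3 to 4 of the list rose and 3 to 8 fell, the fewest falls without the 240 min array or untreated replicate 1.

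Of 28 cytokines and chemokines measured, CXCL14 rose and 6 fell (3 to 5 falls with any of the 4 arrays left out). IL1B, the inflammatory cytokine interleukin-1 beta, fell from 7.70 and 7.32 to 5.94 and 6.07, by 1.5 ± 0.26. GDF15, a stress cytokine, fell from 8.46 and 8.19 to 6.89 and 7.54, by 1.11 ± 0.16, and TGFB2, a transforming growth factor, from 8.06 and 7.95 to 7.11 and 6.71, by 1.10 ± 0.16. Limma's adjusted p was 0.00167, 4.47e-04 and 5.39e-04. Of 22 receptors for interleukins and other cytokines 2 rose and 3 fell (IL1RAP, IL4R and IFNGR2), and none fell without the 240 min array, 4 without the 120 min array. Without the 240 min array IL1RAP, IL4R and IFNGR2 differed by -0.74, -0.59 and -0.46, beside -0.89, -0.78 and -0.63 with all arrays. The calls of IL1RAP without untreated replicate 1 (-0.79) and of IFNGR2 without untreated replicate 2 (-0.54) were lost too. IL1R1, the signalling receptor for interleukin-1, rose from 6.46 and 6.54 to 8.11 and 8.07, by 1.59 ± 0.15, and LIFR, a receptor for leukaemia inhibitory factor, rose by 1.31 ± 0.20 (adjusted p = 4.85e-06 and 6.34e-04 in limma). Of 24 regulators and targets of NF-κB 5 rose and 1 fell, and 2 to 4 rose with any of the 4 arrays left out. Of the 5 risers BIRC3, TNFAIP3 and NFKBIA are also on the list of GR targets. The inhibitor NFKBIA rose from 8.77 and 8.86 to 9.71 and 9.59, by 0.84 ± 0.12, while BCL3, a nuclear cofactor of NF-κB, fell from 8.11 and 7.69 to 6.6 and 6.56, by 1.32 ± 0.16 (limma, adjusted p = 4.25e-04 and 8.78e-05). CFLAR, which blocks caspase-8, rose by 0.79 ± 0.14 (limma, adjusted p = 0.00178). TNFAIP3, a ubiquitin-editing enzyme that restrains NF-κB, rose by 0.96 ± 0.23 (limma, adjusted p = 0.0191). Its call was lost without untreated replicate 2 or the 120 or 240 min array (adjusted p = 0.147, 0.0688 and 0.096 in limma, with 0.00834 to 0.147 over all its alternatives).

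Of 27 fuel genes 5 rose and 5 fell. With an array left out 4 rose, and 2 (without the 240 min array) to 7 (without the 120 min array) fell. ACSL1, which activates long-chain fatty acids, rose from 8.55 and 8.43 to 10.08 and 10.41, by 1.76 ± 0.13, while LIPG, an endothelial-type lipase, fell from 7.61 and 7.57 to 6.26 and 6.05, by 1.44 ± 0.12 (limma, adjusted p = 4.08e-07 and 1.5e-06). TXNIP, which binds thioredoxin and limits glucose uptake, rose from 10.30 and 10.23 to 11.62 and 11.47, by 1.28 ± 0.14 (limma, adjusted p = 3.1e-05). IRS1, the adaptor of the insulin receptor, fell from 6.93 and 6.99 to 6.10 and 5.90, by 0.96 ± 0.11 (limma, adjusted p = 6.3e-05). Of 19 genes of cholesterol synthesis and uptake, HMGCS1 and SREBF1 fell, and both calls were lost without the 240 min array (adjusted p = 0.106 and 0.1 in limma, with 0.00109 to 0.106 and 0.00129 to 0.1 over all alternatives). Without the 120 min array 4 of the list fell, and the list median was -0.36.

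Of 23 genes of the AHR pathway and of steroid or amine metabolism 4 rose and 5 fell. Without either untreated array 2 rose, and without the 240 min array or untreated replicate 1 3 fell. AHR, a receptor for aromatic ligands, fell from 9.54 and 9.52 to 8.43 and 8.01, by 1.30 ± 0.13. Its target CYP1B1, a steroid-oxidising cytochrome, fell from 9.05 and 9.28 to 7.88 and 6.70, by 1.88 ± 0.16, and UGT1A6, a glucuronosyltransferase, from 7.88 and 7.4 to 6.24 and 5.85, by 1.59 ± 0.23. Limma's adjusted p was 7.59e-06, 1.5e-06 and 4.14e-04. UGT1A6 shares exons with its neighbours in the UGT1A family, and its 3 probesets could read more than 1 of them. TXNRD1, a thioredoxin reductase, fell by 0.98 ± 0.15 (limma, adjusted p = 5.85e-04).

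Among transcription factors, FOSL2, a partner in AP-1, rose from 8.74 and 8.94 to 9.61 and 9.79, by 0.86 ± 0.15, and HES1, a repressor downstream of Notch, fell from 7.30 and 7.32 to 6.05 and 5.89, by 1.34 ± 0.21 (limma, adjusted p = 0.00157 and 8.14e-04). Of 25 immediate early factors 1 rose and 3 fell. Without untreated replicate 2 only 1 fell, and without untreated replicate 1 or the 120 min array 2 did. CIART, a repressor of the circadian clock, rose from 6.90 and 6.75 to 7.91 and 7.72, by 0.99 ± 0.13 (limma, adjusted p = 2.22e-04). It was the single riser of 21 clock genes, of which 3 fell, or 1 without the 240 min array or without untreated replicate 1, and 4 without the 120 min array. BHLHE41, another repressor of the clock, fell by 0.78 ± 0.14 (limma, adjusted p = 0.00203), less than 1.5-fold with a stricter brightness filter. Of 27 genes of G1 control 1 rose and 4 fell, PLK2 by the most. With an array left out 1 to 6 fell, the fewest without the 240 min array or untreated replicate 1 and the most without the 120 min array. With quantile normalization 2 fell.

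Matrix and adhesion genes moved in small numbers. LOX, which cross-links collagen, rose from 8.75 and 8.78 to 9.87 and 10.13, by 1.23 ± 0.17, and LAMB1, a laminin chain, by 0.76 ± 0.13 (limma, adjusted p = 2.55e-04 and 0.00207). Of 12 integrins 2 rose and 1 fell. The integrins ITGA10 and ITGA5 rose by 1.37 ± 0.14 and 0.86 ± 0.14 (adjusted p = 1.5e-05 and 0.00146 in limma). ITGA2 fell by 0.86 ± 0.14, a call lost without the 240 min array (adjusted p = 0.264 in limma, with 1.72e-04 to 0.264 over all its alternatives). Without the 120 min array 3 integrins fell. Of 23 measured genes of urokinase, metalloproteinases and their inhibitors PLAU and PLAT fell, 3 without the 120 min array and 1 without the 240 min array or untreated replicate 1. PLAT, tissue plasminogen activator, went from 10.25 and 9.80 to 9.6 and 8.56, and its call was lost without the 240 min array or untreated replicate 1 (adjusted p = 0.487 and 0.0828 in limma, with 5.2e-04 to 0.487 over all its alternatives). No gene was called among 23 of mitosis, 24 of DNA replication, 20 of squamous differentiation and 17 of ribosome biogenesis. Their medians were -0.02, -0.29, 0.04 and -0.31, where all genes had a median of -0.06.

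Between the 2 late times no gene was called in either direction (0% each), although 941 genes (5.67%) had an unadjusted p under 0.05 in limma. The lowest adjusted p was 0.0807, for PLD5 and SYNJ2BP, which were picked out by that p. PLD5, of the phospholipase D family, stood at 7.06 at 120 min and at 8.52 at 240 min, and SYNJ2BP, an outer mitochondrial membrane protein, at 7.44 and 6.26. The call of PLD5 against untreated cells (1.19) was lost without the 240 min array (0.46, adjusted p = 0.388 in limma, with 1.66e-05 to 0.388 over all its alternatives). With a stricter brightness filter 2 genes were higher and 6 lower at 240 min, and with trend and robust moderation 1 and 2. Without a test, 184 of the raised genes (68.1%) and 277 of the lowered (81.5%) lay farther from untreated at 240 than at 120 min, beside 59.2% of all genes. The median of the raised genes was 0.84 at 120 min and 0.92 at 240 min, and that of the lowered genes -0.63 and -0.93.

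Against 60 min of DEX, 125 genes were higher (0.753%) and 73 lower (0.44%) on the late arrays. Of the genes raised over untreated cells 87 were also raised over 60 min, and 1 was called lower than at 60 min. Of the lowered genes 59 were also lowered. Both comparisons use the same late arrays, whose noise moves both alike, so part of this overlap is built in. One group of risers stood at its late level by 60 min. RGS2 was at 2.94 above untreated cells at 60 min and at 2.68 and 2.92 at 120 and 240 min, DUSP1 at 1.95, 2.00 and 2.10, and SGK1 at 1.75, 1.76 and 1.56. ERRFI1 was farthest at 60 min (2.28) and stood at 1.95 and 1.18 later. Another group rose after 60 min. SGPP2 stood at 7.44 and 7.89 at 60 min and at 9.09 and 9.85 later, a rise of 1.80 ± 0.15 (limma, adjusted p = 1.37e-05), and RIPOR2 went from 5.92 and 5.77 to 7.19 and 7.75, by 1.63 ± 0.15 (limma, adjusted p = 2.88e-05). KDR rose by a further 1.11 ± 0.17 (limma, adjusted p = 0.00313), a call that was not checked with arrays left out. GHR was at 6.24 and 6.14 at 60 min, lower than its untreated 6.62 and 6.48, and reached 7.63 and 8.38. Among the falls, AMIGO2 went from 6.87 and 6.36 at 60 min to 5.35 and 4.65, by 1.62 ± 0.20. The last of these levels lay at the background. CYP1B1 went from 8.63 and 8.56 to 7.88 and 6.70, by 1.31 ± 0.16 (limma, adjusted p = 3.24e-04 for both genes). Both calls were lost without the 240 min array (adjusted p = 0.0741 and 0.284 in limma, with 4.73e-05 to 0.0741 and 5.72e-05 to 0.284 over all alternatives). The counts fell to 12 and 4 without that array, to 28 and 6 without DEX replicate 1 at 60 min, and to 68 and 44 without DEX replicate 2 at 60 min. Without the 120 min array 125 were lower.

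**Figure D3:**
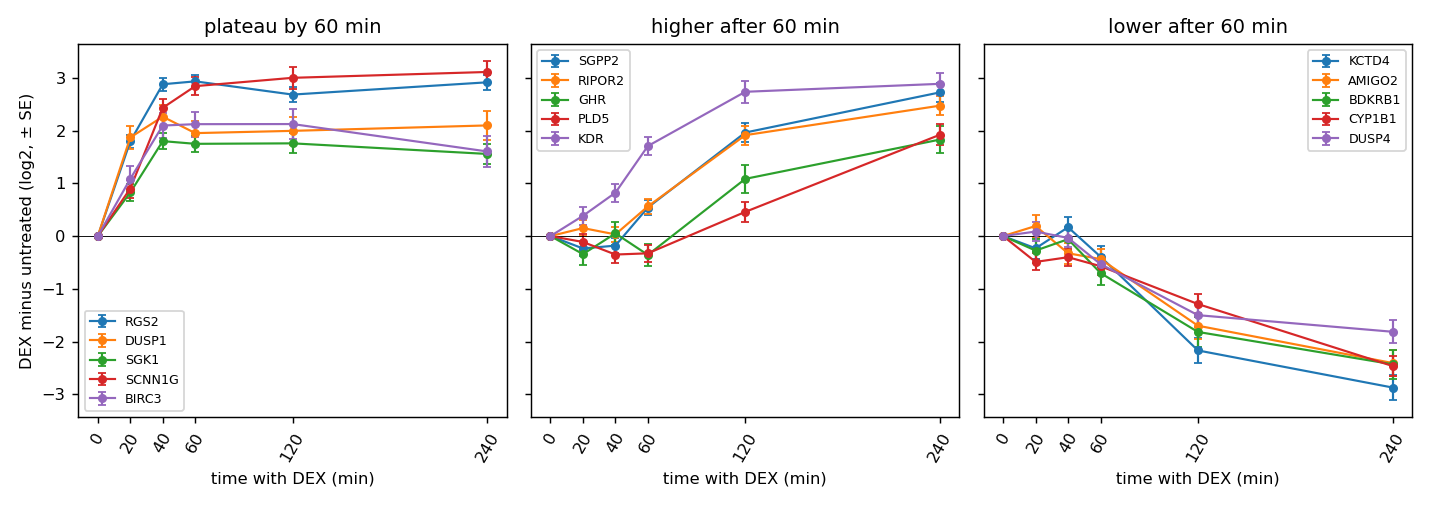
Difference between DEX and untreated cells in log2 units (vertical axis, ± SE from limma) against time with DEX in min, for genes near their late level by 60 min (left), genes higher after 60 min (middle) and genes lower after 60 min (right). Time 0 is the untreated mean and is 0 by definition; points at 20 to 60 min rest on 2 arrays and points at 120 and 240 min on 1. SGPP2 stands at 0.54 at 60 min and at 2.73 at 240 min, KCTD4 at -0.39 and -2.87.

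A comparison matched in time was given by late EGF+DEX against late EGF, on 4 other arrays. There DEX raised 160 genes (0.964%) and lowered 221 (1.33%). Of these, 125 were also raised without EGF (78.1% of the 160 and 46.3% of the 270), and 138 were also lowered without EGF (62.4% of the 221 and 40.6% of the 340). None was called in opposite directions. The sign was the same in 260 of the 270 raised genes (96.3%) and in 335 of the 340 lowered (98.5%), beside 72.3% of all genes. The median difference with EGF was 0.59 for the raised and -0.57 for the lowered genes. SCNN1G rose by 3.56 ± 0.17 in the presence of EGF, RGS2 by 2.70 ± 0.12 and PDK4 by 2.38 ± 0.16, and PLAU fell by 2.11 ± 0.17 and AMIGO2 by 2.26 ± 0.20 (limma, adjusted p from 6.68e-10 to 2.4e-06). The EGFR ligands HBEGF and EREG fell by 1.54 ± 0.17 and 1.60 ± 0.22 relative to EGF (limma, adjusted p = 2.24e-05 and 3.49e-04). The call of TNFSF10 was not made there, with -1.0 ± 0.27 (limma, adjusted p = 0.0547), nor that of RIPK4, with -0.61 ± 0.26 (limma, adjusted p = 0.268). Without the EGF+DEX array at 240 min the counts were 73 and 86, and without the EGF array at 120 min 69 were lower.

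The test of the difference between both DEX effects called no gene higher and none lower (0% each), while 578 genes (3.48%) had an unadjusted p under 0.05 in limma. Up to 2 genes were called lower under other settings. The lowest adjusted p (0.0647 in limma) was shared by CXCL14, DHRS9 and SLC2A14, which were picked out by that p. CXCL14 stood 1.98 higher without EGF and 0.67 higher with it. The call with EGF was lost with a stricter brightness filter and without the EGF array at 120 or 240 min or the EGF+DEX array at 240 min (adjusted p = 0.0763, 0.155, 0.0647 and 0.294 in limma, with 0.00952 to 0.294 over all its alternatives). DHRS9, a retinol and steroid dehydrogenase, stood 1.18 higher without EGF and differed by 0.06 with it, and SLC2A14, a glucose transporter, by 1.32 and -0.07. SLC2A14 has a near-identical neighbour in SLC2A3, and its probesets could read both.

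**Figure D4:**
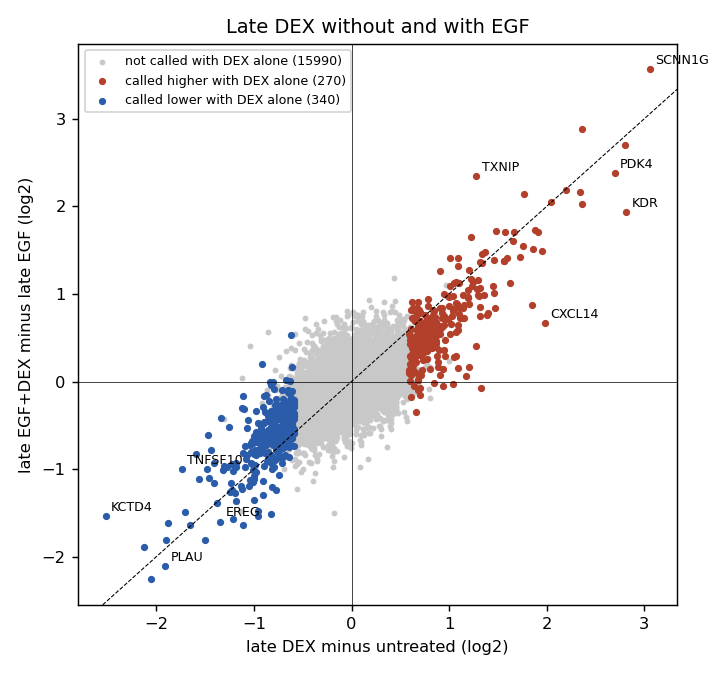
Late DEX minus untreated (horizontal axis, log2) against late EGF+DEX minus late EGF (vertical axis, log2), 1 point a gene, with genes called for DEX alone in colour and the line of equal differences dashed. The axes share no array; SCNN1G lies at 3.06 and 3.56, and CXCL14 at 1.98 and 0.67, below the line.

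In some genes the probesets did not move as 1. By limma's diffSplice 372 genes (2.24%) had a changed pattern, with an adjusted p under 0.05 and a probeset that departed by at least 1 from the rest of its gene. Weighting each probeset by its precision gave 308 genes, and 251 were called both ways. Of these 251, 142 had at least 3 probesets that moved and 38 had 1. The count moved widely with single arrays, down without the 240 min array and up without the 120 min array. The genes described are the 5 with the lowest p and TSC22D3, which was picked apart from that rule. In the order of their IDs, the first 12 probesets of TSC22D3 all rose by at least 1.68. The other 5 differed from untreated by between -0.36 and 1.39, and 4 of its 17 probesets passed the minimum. Probeset 14 stood at 8.38 and 8.66 untreated and at 8.17 and 8.53 with late DEX, and probeset 1 at 10.19 and 10.32 against 11.99 and 11.88. In KDR 10 of 23 probesets passed. The 4 with the highest IDs were already bright, the first of them at 9.19 and 9.16 untreated and 9.67 and 9.98 later, and rose by at most 0.94. Of the other probesets, 9 lay under the background on both untreated arrays, so that the size of their rise has only a lower bound, and this limits what the pattern shows.

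In NRG1 8 of 33 probesets passed. Of the first 9 in ID order, probeset 4 was under the background on both untreated arrays (4.45 and 4.35) and stood at 7.0 and 7.32 with late DEX. The others of these 9 differed by -0.49 to 0.72, whereas the next 9 differed by -0.37 to -2.01. PDE4B, a phosphodiesterase that breaks down cyclic AMP, had 11 of 18. Its probeset 7 stood at 7.56 and 7.74 untreated and at 8.20 and 8.17 with late DEX, while probeset 18 stood at 7.39 and 7.62 and then at 5.12 and 5.32. Of the PDE4B probesets that passed and were lower, 5 lay under the background on both late arrays. The size of their fall has only a lower bound, which limits what the pattern of PDE4B shows. Its gene level fell by 0.79, a call lost with a stricter brightness filter (adjusted p = 0.496 in limma, with 0.00622 to 0.496 over all its alternatives) and without either untreated array or the 240 min array (0.0543, 0.115 and 0.125). LAMA3, a laminin chain with 100 probesets, had the lowest adjusted p of the test (2.99e-16 in diffSplice) and 13 moved probesets, at a gene level that differed by 0.07. Of the moved probesets 7 were higher with DEX, such as probeset 79 at 9.06 and 8.82 untreated and 9.90 and 10.01 later, and 6 were lower. Of the 7 higher ones 3 lay under the background on both untreated arrays, so that the size of their rise has only a lower bound. Probeset 2, also among the 7, stood at 3.63 and 7.80 on the untreated arrays. The 6 lower ones were lowest on the 240 min array, such as probeset 30 at 7.62 and 6.47 untreated, 7.39 at 120 min and 3.32 at 240 min. The patterns of TSC22D3, KDR, NRG1, PDE4B and LAMA3 were called when any of the 4 arrays was left out (adjusted p at most 0.0265 in diffSplice, for LAMA3 without the 240 min array), and with precision weights. Which isoforms the moved probesets belong to was not tested. GREB1, whose 9 of 46 moved probesets completed the 5 lowest p values together with LAMA3, PDE4B, NRG1 and KDR, was higher in all but 2 of its probesets.

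**Figure D5:**
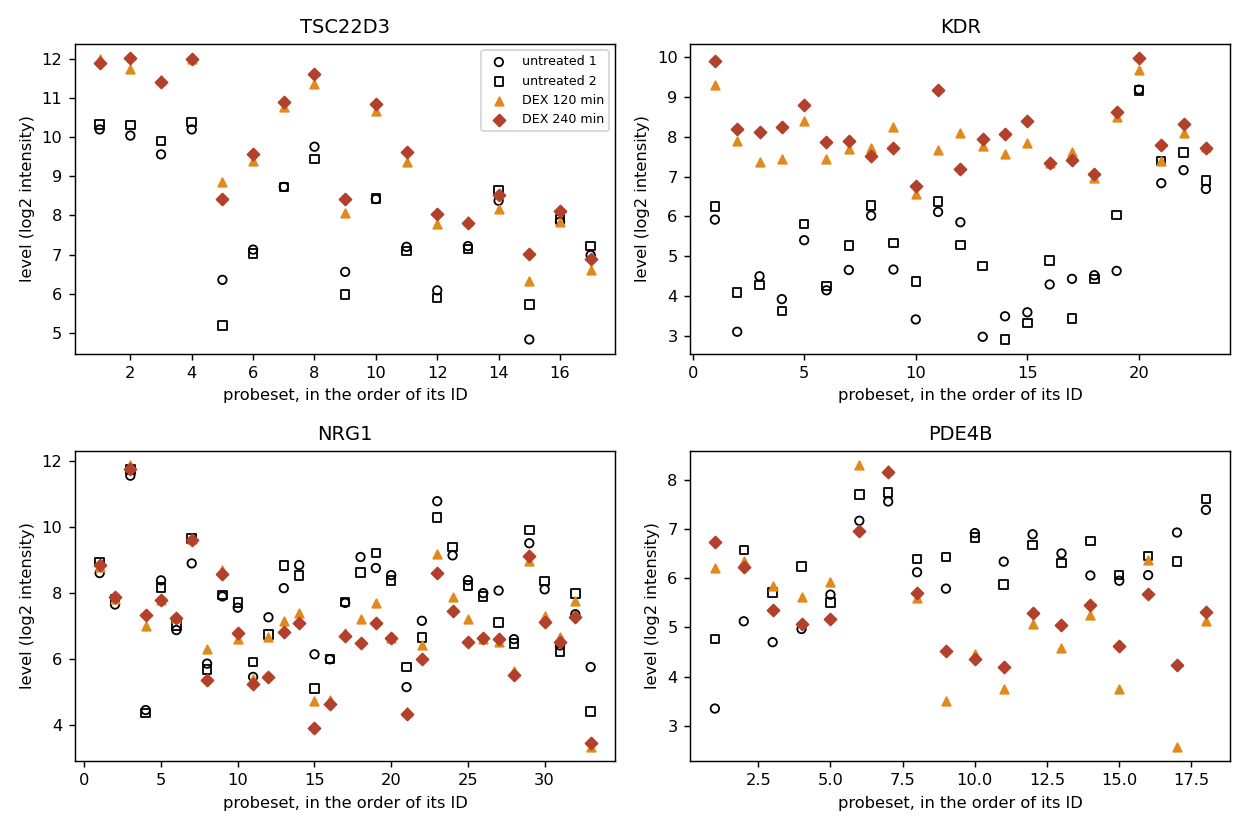
Level of every probeset above background (log2 intensity, vertical axis) in the order of the probeset IDs (horizontal axis) for TSC22D3, KDR, NRG1 and PDE4B, with untreated arrays as open symbols and DEX arrays as filled ones. In TSC22D3 the first 12 probesets lie higher with DEX, while probesets 14, 16 and 17 differ by at most 0.36 in size.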

How the data were processed

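RNA of MCF10A cells was labelled with biotin and hybridized by the authors to exon arrays of Affymetrix (Human Exon 1.0 ST). They deposited linear intensity values per probeset, made with the Affymetrix Expression Console. How probes were summarised, and in which version, is not given in the sources used here. The values (1 to 19500) were put on the log2 scale. A probeset was used when the platform annotation gave it 1 gene symbol (354421 of 844005) and its mean lay above 4.65. Symbols were updated through RefSeq synonyms.

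A limma model with 16 group means was fitted to all 26 arrays (10 residual degrees of freedom), with empirical Bayes moderation and Benjamini-Hochberg adjustment. Exon use was tested with diffSplice. Both were tested on simulated data; in unchanged data diffSplice with equal weights made some false calls, and precision weights (vooma) made fewer and were therefore added after seeing the data. Tools were R 4.3.3, limma 3.58.1, the data.table package (version 1.17.8), Python 3.11.15 and matplotlib 3.10.9. Alternatives were other brightness filters, quantile normalization, the mean of probesets, trend and robust moderation, other fold minimums, a replicate block, the 4 arrays alone and each array left out.

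The comparison, the gene lists and the tests were chosen with earlier results of these data known. Named genes are the 15 largest rises and falls with the same sign at both times and the 5 largest per direction after 60 min. From each list come all called members where 5 or fewer were called, and otherwise the 4 with the largest change. Also named are NR3C1, genes the study names, and the 5 lowest p values for exon use. PER1, KLF9, EGFR, KRT5, PTPRC, PECAM1, SYNJ2BP, DHRS9 and SLC2A14 were named after their values were seen. List genes with fewer than 3 probesets above background were not analysed here. Promoters and positions come from RefSeq (GRCh38.p14); the files carry no coordinates.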

Additional observations from a re-analysis of the deposited data

Results flagged for a closer look

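For 10 genes the late arrays differed from DEX at 60 min, the 5 with the largest differences among those that passed in each direction. The differences were 1.80 for SGPP2, 1.63 for RIPOR2, 1.82 for GHR, 1.52 for PLD5, 1.54 for CCDC144BP, -1.13 for DUSP4, -1.31 for CYP1B1, -1.62 for AMIGO2, -1.43 for BDKRB1 and -2.13 for KCTD4, whose late levels lay under the background (limma, adjusted p from 1.37e-05 to 0.00407). The calls of SGPP2, RIPOR2 and GHR held under the alternatives that were run. Without the 240 min array those of PLD5, CCDC144BP, DUSP4, CYP1B1, AMIGO2 and BDKRB1 were lost (adjusted p = 0.208, 0.166, 0.152, 0.284, 0.0741 and 0.208 in limma, the highest of each gene's alternatives). Those of CCDC144BP, DUSP4 and BDKRB1 were also lost without DEX replicate 1 at 60 min (0.0883, 0.0961 and 0.0961), and that of KCTD4 with no brightness filter (0.104). CCDC144BP, read by 3 probesets, stood at 6.06 and 6.10 untreated, 4.47 and 4.80 at 60 min and 5.93 and 6.41 later. Its late levels thus differed from untreated cells by 0.09. Of its 60 min levels, 4.47 lay under the background of 4.65 and 4.80 just above it. This limits what the size of its rise over 60 min shows.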

How the results depend on the processing

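Of 117 named genes 110 were called for late DEX, and 64 of these kept their call under all alternatives but the 2-fold minimum. None of the 110 changed its sign. For the main comparison, 522 genes were lower with no fold minimum, and 89 were higher and 62 lower with a 2-fold minimum. With that minimum 28 and 12 genes were called against 60 min, and 50 and 44 for EGF+DEX against EGF. Without a brightness filter 47 were lower than at 60 min. Between 240 and 120 min 2 and 6 genes were called with a stricter filter and 1 and 2 with trend and robust moderation. For the difference between both DEX effects 1 gene was lower with a stricter filter, with the mean of probesets and with trend and robust moderation, and 2 with quantile normalization. The 4 arrays alone gave 148 and 152. With each array left out, the counts ranged from 157 to 278 higher and 99 to 564 lower for the main comparison, 12 to 151 and 4 to 125 against 60 min, 73 to 172 and 69 to 233 for EGF+DEX against EGF, and 0 to 2 lower for the difference between both DEX effects. With a departure minimum of 2, 165 genes had changed exon use, and with an array left out 49 to 2212. A replicate block gave 268 higher and 433 lower in the main comparison and ended the call of CCNE2 (limma, adjusted p = 0.0688, 0.013 to 0.473 over its alternatives). CCNE2 also lost its call without untreated replicate 1 or the 240 min array, where it differed by -0.382 and -0.455, beside -0.656 with all arrays. The labels share numbers only, and over 45 pairs of groups the deviations of same-numbered arrays correlated between -0.20 and 0.31. The cause of these changes was not tested, beyond the fewer arrays. With 1 array at each late time, the spread at 120 and 240 min was not measured.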
